A study of Mus musculus with 107 samples.

Results

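The genes described here encode the interstitial extracellular matrix of mouse tumors and the fibroblasts that make it. They were 39 named genes of the 50686 in the deposited table: 7 fibrillar collagens, 3 type VI collagen chains, 6 other collagens, 5 matrix glycoproteins, 5 fibroblast and contractile markers, 4 small proteoglycan genes counting dermatopontin, 6 elastic fibre genes and 3 lysyl oxidases. All 39 were found by their symbol. The level of a gene is given as TPM, its share of each tumor's transcripts after correction for length, so levels may be compared between genes.

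RNA was sequenced from 107 tumors of 12 syngeneic models, in which a mouse cancer line grows under the skin of an immunocompetent host. The untreated baseline arm (Base, 35 tumors) was collected at about 100 mm3. The no-treatment arm (NT, 36 tumors) and the lenvatinib arm (LEN, 36 tumors) were collected on day 8, LEN after 10 mg/kg by mouth once daily for 7 days. Lenvatinib inhibits the VEGF and FGF receptor tyrosine kinases among others. Each arm of each model had 3 tumors, except MC38 Base with 2. BNL 1ME A.7R.1 (liver), RAG and Renca (kidney), CT26.WT (colorectal), EMT6 and 4T1 (breast) grew in BALB/cAnNCrlCrlj mice, Hepa 1-6 (liver) in C57L/J, MC38 (colorectal) and B16-F10 (melanoma) in C57BL/6NCrl, LL/2 (lung) in C57BL/6JCrl, KLN205 (lung) in DBA/2NCrl and MBT2 (bladder) in C3H/HeNCrl. Per the study's methods, mice were 7 weeks old at implantation, hosts of the liver lines were male and the RAG cells had been adapted in vivo. Each tumor of the NT and LEN arms came from a different mouse from those of Base, so a change from Base to NT is a difference between groups and not a course within a tumor.

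Interstitial matrix is laid down mainly by fibroblasts. Procollagen chains are hydroxylated and folded in the endoplasmic reticulum, trimmed outside the cell, assembled into fibrils of types I, III and V collagen, and cross-linked by lysyl oxidases. Small proteoglycans such as decorin and lumican bind to the fibrils and set their width, while fibronectin, tenascin-C and the thrombospondins connect the matrix to cells. Some fibroblasts in tumors take on a contractile state with alpha-smooth muscle actin, and pericytes around vessels carry the same protein. Carcinoma, melanoma and other cancer lines can also express matrix genes. In bulk RNA, fewer cells of a type and less RNA per cell cannot be told apart, nor can cancer cells and host cells of the same species.

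The summed level of 8 further genes used as fibroblast markers lay between 62.4 TPM and 818 TPM in all 107 tumors, and some of them, such as Gsn, are also expressed by other cells. Protein-coding genes took 27.5% to 66.6% of the TPM, so a gene's share also moves with the noncoding rest. Subcutaneous tumors are dissected from skin and muscle, and the sum of 8 skeletal muscle markers ranged from 1.66 TPM to 2543 TPM. All 8 were lower in NT than in Base and higher in LEN than in NT on average over the models. Within models, 4 to 6 of the 8 were lower in NT than in Base in B16-F10, BNL 1ME A.7R.1, Renca and EMT6. All 8 were higher with LEN in B16-F10 and BNL 1ME A.7R.1, while Renca had a median of 0.78 over the list with LEN and no marker called. Mean results of the members are also given without the 3 models B16-F10, BNL 1ME A.7R.1 and Renca, a choice made after the data were seen. EMT6 was kept, so for NT against Base those fits still hold a model with lower muscle markers. Sequencing depth is unknown, since TPM values keep none.

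Before treatment, the models differed in nearly every matrix gene. In a limma fit of log2(TPM + 1) across the Base tumors, 38 of 38 tested members differed between the 12 models at an adjusted p under 0.05, where 93.6% of all genes tested did so. Col11a1, a minor fibrillar collagen, was under the expression minimum of a mean of 1 TPM and was listed at 0 in 4 Base tumors. Summed over the members, Base levels ran from 845 TPM to 1072 TPM in B16-F10 and from 8664 TPM to 9224 TPM in BNL 1ME A.7R.1.

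Type I collagen, the main protein of fibrous tissue, is built from the chains of Col1a1 and Col1a2. Col1a1 was highest in BNL 1ME A.7R.1, where the 3 Base tumors had 1557, 1631 and 1640.4 TPM, and lowest in LL/2, where they had 40.5, 48.7 and 48.7 TPM. Col1a2 followed the same extremes, with a mean of 1818 TPM in BNL 1ME A.7R.1 and 13.6 ± 3.52 TPM (SD, n = 3) in LL/2. LL/2 was nevertheless the model with the most Col3a1, the type III chain that joins type I in soft tissue, at 1072, 1169 and 1198 TPM. The ratio of Col3a1 to Col1a1 was thus 25.2 ± 3.93 in LL/2 Base tumors, and between 0.477 and 1.5 as a mean in the other 11 models. CT26.WT departed in the balance within type I itself. Its 3 Base tumors had 121, 132 and 169 TPM of Col1a1 against 448, 468 and 497 TPM of Col1a2, a ratio of 0.297 ± 0.0380, while the mean ratio was 0.804 or more in every other model. The partners of these genes in the mature fibril, Col5a1 and Col5a2, were highest in BNL 1ME A.7R.1 at 191 and 133 TPM.

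The other roles peaked in different models. Postn, a matricellular protein of activated fibroblasts, had a Base mean of 1201 TPM in BNL 1ME A.7R.1 and 8.49 TPM in CT26.WT. Fn1, which encodes fibronectin, was highest in Hepa 1-6 with 1482, 1711 and 1959 TPM and lowest in MBT2 with 58.3, 64.9 and 76.7 TPM. These ranges do not come near each other. Decorin (Dcn) was also highest in Hepa 1-6 at 692 ± 39.5 TPM, and lowest in RAG at 9.72 TPM. Lumican (Lum) and dermatopontin (Dpt), which likewise bind collagen fibrils, were highest in LL/2 at 143 ± 3.90 and 99.8 ± 13.6 TPM, so the model lowest in type I collagen was high in the proteins that coat fibrils. Acta2, alpha-smooth muscle actin, was highest in EMT6 with 293, 310.4 and 321 TPM and lowest in CT26.WT with 6.14, 6.21 and 6.60 TPM. Fap, the membrane protease fibroblast activation protein, was low everywhere, from a mean of 0.870 TPM in B16-F10 to 7.95 TPM in BNL 1ME A.7R.1. Podoplanin (Pdpn), a membrane glycoprotein of fibroblasts and lymphatic cells, was highest in MBT2 at 139 ± 15.0 TPM and Renca at 134 ± 9.46 TPM, whose tumors overlapped.

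Other genes stood high in 1 or 2 models. Fbln5, a fibulin needed to assemble elastic fibres, had 67.5, 69.6 and 70.4 TPM in B16-F10, the model with the lowest member sum, and a Base median of 1.47 TPM over all models. Fbln1, another fibulin, had means of 115 TPM in Renca and 52.1 TPM in B16-F10 against a median of 7.41 TPM. Thbs1, thrombospondin 1, an inhibitor of vessel growth, was highest in KLN205 at 384 ± 83.7 TPM. A lung squamous line, KLN205 also had keratinocyte marker sums of 747 to 2091 TPM over its tumors. Lysyl oxidase (Lox), which cross-links collagen and elastin, had its highest mean in Hepa 1-6 at 92.6 TPM, and its relatives Loxl1 and Loxl2 in BNL 1ME A.7R.1 at 43.3 and 64.4 TPM. All 3 were lowest in LL/2.

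**Figure D1:**
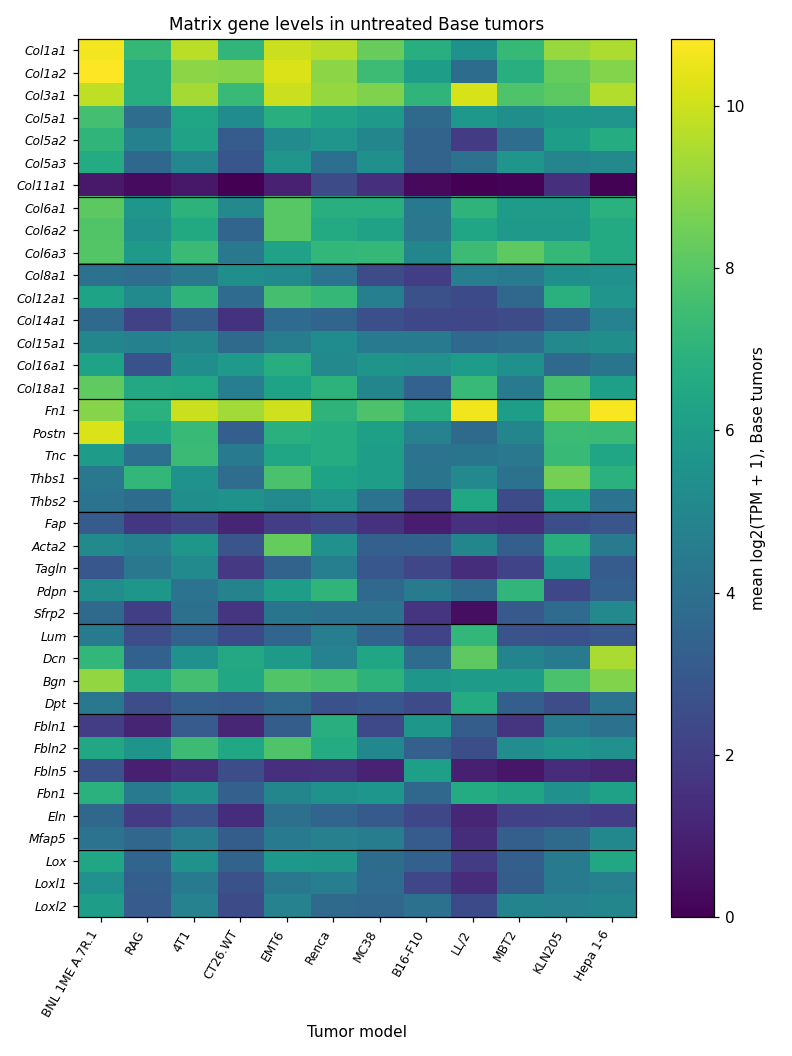
Mean log2(TPM + 1) of each of the 39 members (rows, grouped by role) in the Base tumors of each model (columns, n = 3, MC38 n = 2). BNL 1ME A.7R.1 is bright in most collagens, LL/2 is dark for Col1a2 and bright for Col3a1, Dcn, Lum and Dpt, and Fbln5 is bright in B16-F10 only.

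Comparing NT on day 8 with Base asks how the matrix genes stand as an untreated tumor grows. Averaged over the 12 models, 17 of 38 tested members were lower in NT and 3 were higher, where 11.5% of all genes were lower and 17.0% higher. The median change of the members was -0.23 on the log2(TPM + 1) scale, against 0.01 for all 17428 genes tested. Changes on this scale understate those of genes near 1 TPM.

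All 4 members of the small proteoglycan group fell. Dpt had a lowest, median and highest level of 2.75, 7.43 and 112 TPM in Base tumors and 0.300, 4.68 and 39.3 TPM in NT tumors, and its mean change of -0.95 (SE 0.15, adjusted p 2.2e-06) was the largest fall. Dcn had a lowest, median and highest Base level of 6.88, 48.6 and 736 TPM and NT levels of 2.21, 34.5 and 753 TPM, a mean change of -0.65 (SE 0.10, adjusted p 5.7e-06). The arms overlap when models are pooled, because the models differ more than the arms do. Within models, Dpt was lower in 10 of 12 and Dcn in 9 of 12. Lum had 2.59, 6.96 and 146 TPM in Base and 0.570, 6.78 and 113 TPM in NT, a mean change of -0.45 (SE 0.11, adjusted p 0.0017). Bgn, which encodes biglycan, also fell, by 0.33, and was not called without Renca (adjusted p 0.078).

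Outside this group, Sfrp2, a secreted Wnt modulator of fibroblasts, had Base levels of 0.180, 11.5 and 50.9 TPM (lowest, median, highest) and NT levels of 0.0700, 4.90 and 27.0 TPM. It fell by 0.60 (SE 0.15, adjusted p 0.0023). The microfibril protein gene Mfap5 fell by 0.51 (SE 0.11) and was lower in 11 of 12 models, its Base levels being 1.03, 14.7 and 44.0 TPM and its NT levels 0.510, 9.99 and 28.6 TPM. All 3 type VI chains, which form the beaded filaments around cells, were lower, by 0.25 to 0.35, although without Renca neither Col6a1 (adjusted p 0.12) nor Col6a3 (0.18) was called. Of the fibrillar collagens, Col3a1 was the 1 member of 6 called, with -0.41 (SE 0.12, adjusted p 0.0073), and it was not called without Renca (adjusted p 0.14). Its levels were 97.6, 491 and 1267 TPM in Base and 37.5, 291 and 2246 TPM in NT. Col1a1 had -0.25 (SE 0.11, adjusted p 0.086). Also called lower were Tnc (-0.33), Col15a1 (-0.31), Col14a1 (-0.31), Loxl1 (-0.28), Pdpn (-0.27), Fbn1 (-0.25) and Fbln2 (-0.22). Tnc and Col15a1 were called in all 12 fits without 1 model, and the others in 7 to 10.

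The 3 members that were higher were Tagln, an actin-binding protein of contractile cells, Thbs1 and Col8a1, a short-chain collagen. Their mean changes were small, at 0.25, 0.22 and 0.12, and none of the 3 was called when TPM was rescaled to the upper quartile (adjusted p 0.097, 0.11 and 0.19) or to protein-coding genes. Fewer of all genes were higher under both scalings too. Tagln had Base levels of 1.39, 6.93 and 67.6 TPM and NT levels of 1.61, 10.7 and 99.2 TPM, Thbs1 had 10.6, 55.7 and 445 against 13.6, 55.2 and 565 TPM, and Col8a1 had 2.85, 21.5 and 50.3 against 1.58, 22.6 and 76.3 TPM. Neither Acta2 (0.09, adjusted p 0.33) nor Fap (-0.05, adjusted p 0.54), Fn1 (0.02, adjusted p 0.79) or Postn (-0.18, adjusted p 0.15) passed the test. Over the same comparison 8 of 8 skeletal muscle markers and 6 of 6 tested adipocyte markers were lower, as were 3 of 8 further fibroblast markers (Clec3b, Pi16 and Thy1), 6 of 8 endothelial, 3 of 8 macrophage and 2 of 8 pericyte and smooth muscle markers (Des and Myh11). The smallest adjusted p was 0.20 among the proliferation markers and 0.064 among the keratinocyte markers. Their part in the result was not tested. Without B16-F10, BNL 1ME A.7R.1 and Renca, 2 members were lower, Dpt (-0.93) and Dcn (-0.41), and the same 3 were higher, where 7.85% of all genes were lower and 16.1% higher.

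**Figure D2:**
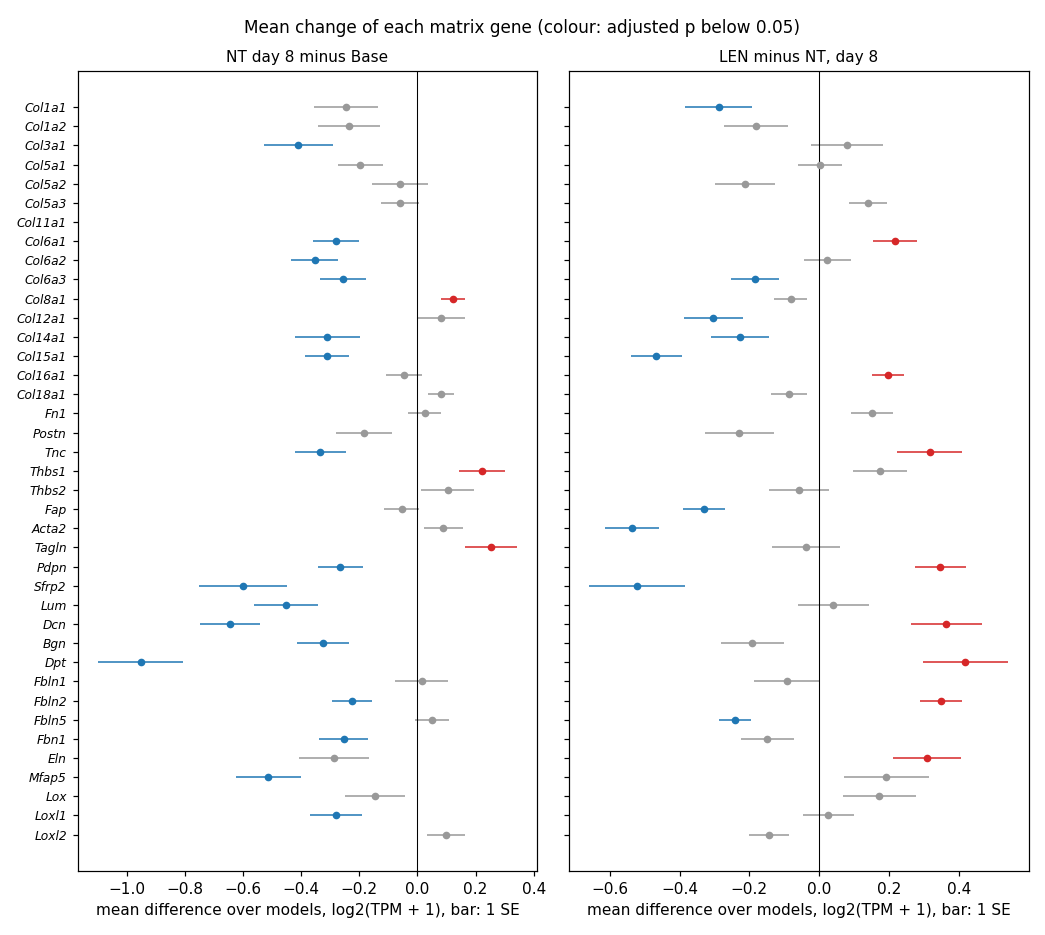
Mean change of each member over the 12 models (points) with 1 SE (bars), on the log2(TPM + 1) scale, for NT day 8 minus Base at left and LEN minus NT at right, with colour for an adjusted p under 0.05 (blue lower, red higher) and grey otherwise. Dpt and Dcn lie lowest at left and to the right of 0 at right, and Acta2 and Sfrp2 lie lowest at right. The panels share the NT tumors, so their values are not independent, and Col11a1 was not tested.

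The change from Base to NT differed between models for 36 of 38 members (all but Thbs1 and Fbln1), where 66.5% of all genes differed. The models went apart in direction. In BNL 1ME A.7R.1, 26 of 38 tested members were higher and 5 lower (all genes 23.6% and 4.71%), with a member median of 0.74 against 0.17 for all genes. Postn rose from 1122, 1225 and 1256 TPM to 2863, 3225 and 3637 TPM (1.43, SE 0.10, adjusted p 0.00062). Fbln5 rose from 5.09, 5.27 and 6.26 TPM to 19.0, 20.8 and 24.9 TPM (1.78, SE 0.12). In neither gene did the arms overlap. Sfrp2 went the other way in these tumors, from 12.3, 12.5 and 13 TPM to 2.21, 2.54 and 4.52 TPM (-1.77, SE 0.20), and so did Col14a1, a collagen found on fibril surfaces, from 10.1, 12.5 and 15.2 TPM to 3.48, 4.14 and 4.74 TPM (-1.40, SE 0.17). The members' summed level was 8664 to 9224 TPM in Base and 16424 to 18719 TPM in NT, while the sum of the skeletal muscle markers went from 318 to 713 TPM down to 43.4 to 129.5 TPM and that of the macrophage markers from 287 to 459 TPM up to 842 to 874 TPM. In limma 7 of 7 tested adipocyte markers were lower, while 5 of 8 further fibroblast, 5 of 7 tested pericyte and smooth muscle and 3 of 8 endothelial markers were higher, and 2 of the fibroblast and 1 of the pericyte and smooth muscle markers were lower. Their part in the result was not tested.

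In Renca most members were lower in NT, although Fbln1 had a mean of 115 TPM in Base and 134 TPM in NT. Here 26 of 39 were called lower and none was called higher, where 7.08% of all genes were lower. The member median was -1.2 against -0.12. Leaving out 1 tumor gave 17 (without Base replicate 1) to 28 members lower (without NT replicate 5), and a fit with no minimum on TPM gave 18. Col3a1 dropped from 455, 527 and 735 TPM to 90.6, 101 and 192 TPM (-2.21, SE 0.29, adjusted p 0.0079). Dcn dropped from 24.4, 24.8 and 33.1 TPM to 3.51, 5.66 and 7.12 TPM (-2.17, SE 0.22). Col1a1 went from 655, 804 and 1016 TPM to 158, 206 and 333 TPM (-1.87, SE 0.27). Every Base tumor was above every NT tumor for these genes, and likewise for Col1a2 (-1.99) and Lum (-1.91). In the same comparison 8 of 8 endothelial and 6 of 8 skeletal muscle markers were lower, the latter with a sum of 222 to 318 TPM in Base and 14.2 to 126 TPM in NT. So were 5 of 8 further fibroblast, 5 of 8 macrophage, 2 of 3 tested adipocyte and 2 of 8 pericyte and smooth muscle markers. Their part in the result was not tested.

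B16-F10 resembled Renca in direction, with 11 of 37 members lower and none higher where 0.641% of all genes were lower, and a median of -0.74. Dpt went from 3.32, 5.25 and 5.97 TPM to 0.300, 0.530 and 0.780 TPM (-1.91, SE 0.23, adjusted p 0.025), and Dcn from 11.4, 11.6 and 17.8 TPM to 2.21, 3.35 and 3.89 TPM (-1.81, SE 0.22). Col3a1 and Lum followed at -1.53 and -1.45. Without Base replicate 1 or NT replicate 5 no member was called, and 1 was called without Base replicate 3 or NT replicate 2, so the count rests on single tumors. With no minimum on TPM 1 member was lower (21 of 27823 genes), and with no trend 6 (75 of 15595). Protein-coding scaling gave 17 lower (249 of 12617 genes). Of the marker lists, 4 of 8 skeletal muscle genes (sums of 114 to 144 TPM in Base and 2.63 to 27.1 TPM in NT) and 3 of 8 macrophage genes were lower in B16-F10, as were 1 of 8 further fibroblast, 1 of 8 pericyte and smooth muscle and 1 of 3 tested adipocyte genes, and the part of these genes in the result was not tested. In LL/2, 11 of 37 members were lower and 2 higher (all genes 2.02% and 3.69%). Acta2 fell the most, from 29.2, 30.0 and 31.4 TPM to 5.90, 7.40 and 7.52 TPM (-1.98, SE 0.11, adjusted p 0.00059), with Dpt (-1.48) and Col15a1 (-1.41) after it. Loxl2 rose there from 2.93, 5.26 and 5.44 TPM to 11.7, 13.9 and 18.4 TPM (1.51, SE 0.24), and Col5a2 by 1.15. Leaving out 1 tumor left 2 to 10 of the LL/2 members lower. There 3 of 8 macrophage markers were lower (sums of 617 to 802 TPM in Base and 393 to 529 TPM in NT), and of 7 tested fibroblast markers 3 were lower and 1 higher. Of the pericyte and smooth muscle list 1 of 7 tested was lower, with sums of 35.8 to 49.8 TPM in Base and 20.9 to 23 TPM in NT, and of the endothelial list 1 of 8. The part of these markers in the LL/2 result was not tested.

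Few members were called in the other models. In KLN205, 5 of 39 were higher (Eln, Col8a1, Tnc, Thbs1 and Col18a1) where 28.3% of all genes were higher, a share below the background, and none was called after upper-quartile scaling. Leaving out 1 tumor gave 1 to 4 members higher, except that 15 members were higher without Base replicate 2. Elastin (Eln) had the largest change there, from 2.02, 2.53 and 8.75 TPM to 8.98, 15.3 and 16.1 TPM (1.58, SE 0.46, adjusted p 0.042). In EMT6, 1 of 38 was lower (Eln, -1.29) and 3 were higher (Col8a1, Thbs1 and Col16a1), where 4.51% of genes were lower and 17.2% higher. The EMT6 split turned to 8 lower and 1 higher with upper-quartile scaling, where all genes turned as well, with 15.2% lower and 5.46% higher. Protein-coding scaling gave 20 members lower and 0 higher, where 30.3% of all genes were lower. On the original scale without NT replicate 4, 8 members were lower and 1 higher, where 3.79% and 12.7% of all genes were. Within RAG, 4T1, CT26.WT, MC38, MBT2 and Hepa 1-6 limma called no member, where 0.0573%, 0.489%, 0.0638%, 0.0497%, 0.0322% and 0.324% of all genes were called in either direction. At an unadjusted p under 0.05 there were 4, 11, 4, 3, 10 and 17 members, where 10.9%, 23.3%, 24.4%, 10.1%, 9.54% and 26.6% of all genes passed. A fit that pools the spread of all models called 1, 2, 0, 2, 1 and 17 members, where it called 4.85%, 14.7%, 6.79%, 0.809%, 0.333% and 20.6% of all genes. In the Hepa 1-6 fit without NT replicate 4, 10 members were lower, where 4.68% of all genes were.

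**Figure D3:**
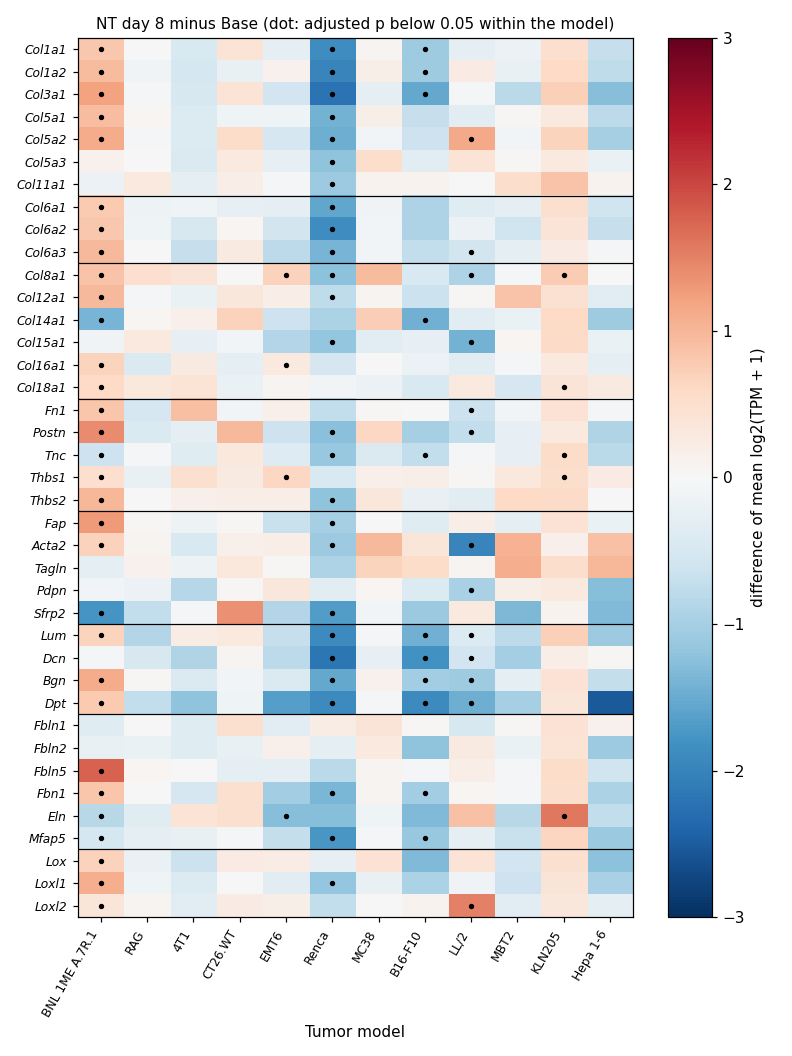
Difference of mean log2(TPM + 1), NT day 8 minus Base, for each member (rows, by role) and model (columns), with red for higher in NT, blue for lower and a dot for an adjusted p under 0.05 within the model. The BNL 1ME A.7R.1 column is mostly red, with 26 members called higher, and the Renca column mostly blue, with 26 called lower.

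LEN against NT on day 8 is the drug comparison at matched time. Over the 12 models, 9 of 38 tested members were lower with LEN and 8 were higher, where 9.87% of all genes were lower and 13.7% higher. The members had a median change of -0.05 and all genes one of -0.00. The split depended on the models included, since without B16-F10 there were 15 members lower and 3 higher, where 9.37% and 10.8% of all genes were. Of the 5 fibroblast and contractile members, Acta2, Fap and Sfrp2 were lower and Pdpn was higher, and of 6 fibrillar collagens tested, Col1a1 was lower and none was higher. Of the 8 further fibroblast markers outside the members, 3 were higher and 1 lower.

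Acta2 had the most regular change of all members. Over the NT tumors its lowest, median and highest levels were 5.90, 28.1 and 432 TPM, and over the LEN tumors 3.75, 18.5 and 372 TPM. Its mean change was -0.54 (SE 0.08, adjusted p 2.6e-07), its value being lower in 12 of 12 models, and it was called in each fit that left out 1 model. The fall was far from even. In B16-F10 it went from 10.8, 12.8 and 13.8 TPM to 4.54, 4.96 and 6.02 TPM (-1.12, SE 0.13, adjusted p 0.0043). In MC38 it went from 15.5, 19.6 and 22.0 TPM to 7.47, 7.91 and 8.49 TPM (-1.15, SE 0.13, adjusted p 0.10), and in MBT2 from 13.7, 15.2 and 33.1 TPM to 3.75, 8.29 and 12.5 TPM (-1.26, SE 0.44, adjusted p 0.30). The arms did not overlap in these 3 models, although B16-F10 alone passed the test. In EMT6, the model with the most Acta2, NT tumors had 309, 335 and 432 TPM and LEN tumors 326, 330.1 and 372 TPM, which overlap. The difference in effect between models passed its test for Acta2 (adjusted p 0.032).

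Acta2 is expressed by pericytes and smooth muscle as well as by contractile fibroblasts. Of 8 markers fixed for those mural cells, 6 were lower with LEN (among them Rgs5 by 0.94 and Mcam by 0.84), and Des, which skeletal muscle also expresses, was higher. All 8 endothelial markers were lower. Tagln, another smooth muscle gene, had -0.04 (SE 0.10, adjusted p 0.84). Of the other lists, 5 of 8 macrophage and 8 of 8 proliferation markers were lower with LEN, 2 of 6 tested keratinocyte markers were higher, 3 of 4 tested adipocyte markers were higher and 1 lower, and 3 of the 8 further fibroblast markers were higher (Pi16, Clec3b and Gsn) and 1 lower (Pdgfrb). Their part in the Acta2 change was not tested.

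Col15a1 encodes a collagen of the zone between basement membrane and interstitium, around vessels and muscle. Its levels were 2.87, 18.3 and 56.0 TPM (lowest, median, highest) in NT and 1.95, 14.7 and 63.0 TPM in LEN. It fell by 0.47 (SE 0.07, adjusted p 1.3e-06), and 10 of 12 models had lower values. In Renca it went from 14.6, 15.3 and 19.1 TPM to 5.11, 7.22 and 8.58 TPM (-1.14, SE 0.18), and in BNL 1ME A.7R.1 from 23.6, 29.0 and 32.6 TPM to 15.1, 15.3 and 16.9 TPM (-0.80, SE 0.12). In Hepa 1-6 it was higher in every LEN tumor (49.8, 56.5 and 63.0 TPM) than in any NT tumor (28.8, 34.2 and 44.9 TPM), with an adjusted p of 0.11.

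The promoters of the pair with the smallest p-values among the lower members are printed here for the reader, from RefSeq on GRCm38.p6, 250 bases before the annotated start to 50 after it, 5′ to 3′ on the gene's strand. Acta2 is at chr19:34255324-34255623 (minus strand) and Col15a1 at chr4:47207762-47208061 (plus strand). Capitals mark matches on either strand to CCAAT and TATAA (core promoter boxes), GGAATG (the TEAD factor motif) and CAGAC (the SMAD-binding core, written GTCTG on the opposite strand).
Acta2: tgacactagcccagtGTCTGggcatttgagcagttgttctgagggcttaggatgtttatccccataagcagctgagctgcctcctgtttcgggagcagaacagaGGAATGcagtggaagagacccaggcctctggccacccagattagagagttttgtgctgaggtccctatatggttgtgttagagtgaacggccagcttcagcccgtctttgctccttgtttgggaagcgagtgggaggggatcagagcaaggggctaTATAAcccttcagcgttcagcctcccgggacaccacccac
Col15a1: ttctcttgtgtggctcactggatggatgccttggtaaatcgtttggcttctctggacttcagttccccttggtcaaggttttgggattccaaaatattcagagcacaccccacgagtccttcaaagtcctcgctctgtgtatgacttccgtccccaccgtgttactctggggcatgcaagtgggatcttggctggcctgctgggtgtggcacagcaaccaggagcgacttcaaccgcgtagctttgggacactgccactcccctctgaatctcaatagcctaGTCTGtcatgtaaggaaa
In Acta2, TATAA begins at position 11 after the annotated start, GGAATG begins 146 bases before the start and CAGAC, on the opposite strand, 235 bases before. In Col15a1 CAGAC, on the opposite strand, begins at position 33 after the start, and the other motifs have no match in this window. The 4 motifs occur in 37.4% (CCAAT), 24.9% (TATAA), 14.7% (GGAATG) and 49.6% (CAGAC) of 32851 promoters of the same length. Among the 24 members with a promoter in the table they occur in 8, 5, 3 and 14. A match is a match of letters only.

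The remaining members that were lower included Sfrp2, from 0.0700, 4.90 and 27.0 TPM in NT to 0.170, 2.63 and 28.0 TPM in LEN (-0.52, SE 0.14, adjusted p 0.0031, lower in 8 of 12 models). Fap went from 0.310, 2.15 and 22.8 TPM to 0.290, 1.43 and 19.0 TPM (-0.33, SE 0.06, adjusted p 2.8e-05, lower in 9 of 12 models). Both are expressed by activated fibroblasts. Among collagens, Col12a1, a fibril-associated collagen, went from 3.09, 37.7 and 266 TPM to 2.5, 39.7 and 227 TPM (-0.30, SE 0.08). Col1a1 went from 27.1, 289.5 and 2926 TPM to 25.9, 156 and 2609 TPM, with a mean change of -0.29 (SE 0.10, adjusted p 0.023, lower in 9 of 12 models). The Col1a1 call was kept in 7 of 12 fits without 1 model (adjusted p 0.13 without MC38) and in every fit without 1 tumor. Fbln5 (-0.24, lower in 11 of 12 models), Col14a1 (-0.23) and Col6a3 (-0.18) completed the 9, and the last pair was called in 3 and 5 of the 12 fits without 1 model.

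Higher with LEN were Dpt (0.42, SE 0.12), Dcn (0.36, SE 0.10), Fbln2 (0.35, SE 0.06), Pdpn (0.35, SE 0.07), Tnc (0.32, SE 0.09), Eln (0.31, SE 0.10), Col6a1 (0.22) and Col16a1 (0.20). Dpt levels were 0.300, 4.68 and 39.3 TPM in NT (lowest, median, highest) and 0.910, 5.62 and 55.1 TPM in LEN, and those of Dcn 2.21, 34.5 and 753 TPM and 2.95, 58.9 and 792 TPM. Without B16-F10, neither was called (adjusted p 0.23 and 0.38), nor were Tnc (0.21) and Col6a1 (0.078), and Eln was not called without BNL 1ME A.7R.1 (0.18). Tnc, tenascin-C, had 8.33, 37.7 and 253 TPM in NT and 10.8, 42.9 and 266 TPM in LEN, and Eln 0.610, 3.79 and 16.1 TPM against 0.940, 3.81 and 20.4 TPM. Of the 12 fits without 1 model, 9 called Eln, 10 called each of Dpt, Dcn and Tnc, and 11 called Col6a1. The calls of these 5 genes thus depended on the models included. Pdpn and Col16a1, a fibril-associated collagen, were higher in 10 and 9 of 12 models and called in all 12 fits without 1 model. Pdpn levels were 1.2, 19.6 and 183 TPM in NT and 4.00, 28.4 and 180.5 TPM in LEN. Fbln2, a fibulin of vessel and elastic fibre matrix, was also called in all 12 fits, although it was higher in 7 of 12 models, with 2.92, 56.3 and 307 TPM in NT and 3.19, 49.6 and 350.0 TPM in LEN. Without B16-F10, BNL 1ME A.7R.1 and Renca there were 11 members lower and 2 higher, Pdpn (0.36) and Col16a1 (0.21), where 6.11% of all genes were lower and 3.84% higher. Fbln2 had 0.05 (adjusted p 0.75) in that fit.

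Col3a1 (0.08, adjusted p 0.65), Fn1 (0.15, adjusted p 0.060) and Postn (-0.23, adjusted p 0.088) did not pass. Col3a1 had 37.5, 291 and 2246 TPM in NT and 57.7, 247 and 1800.4 TPM in LEN, Fn1 50.1, 602 and 2076 against 31.9, 565 and 2527 TPM, and Postn 6.74, 63.8 and 3637 against 3.43, 50.2 and 3086 TPM. No lysyl oxidase was called.

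**Figure D4:**
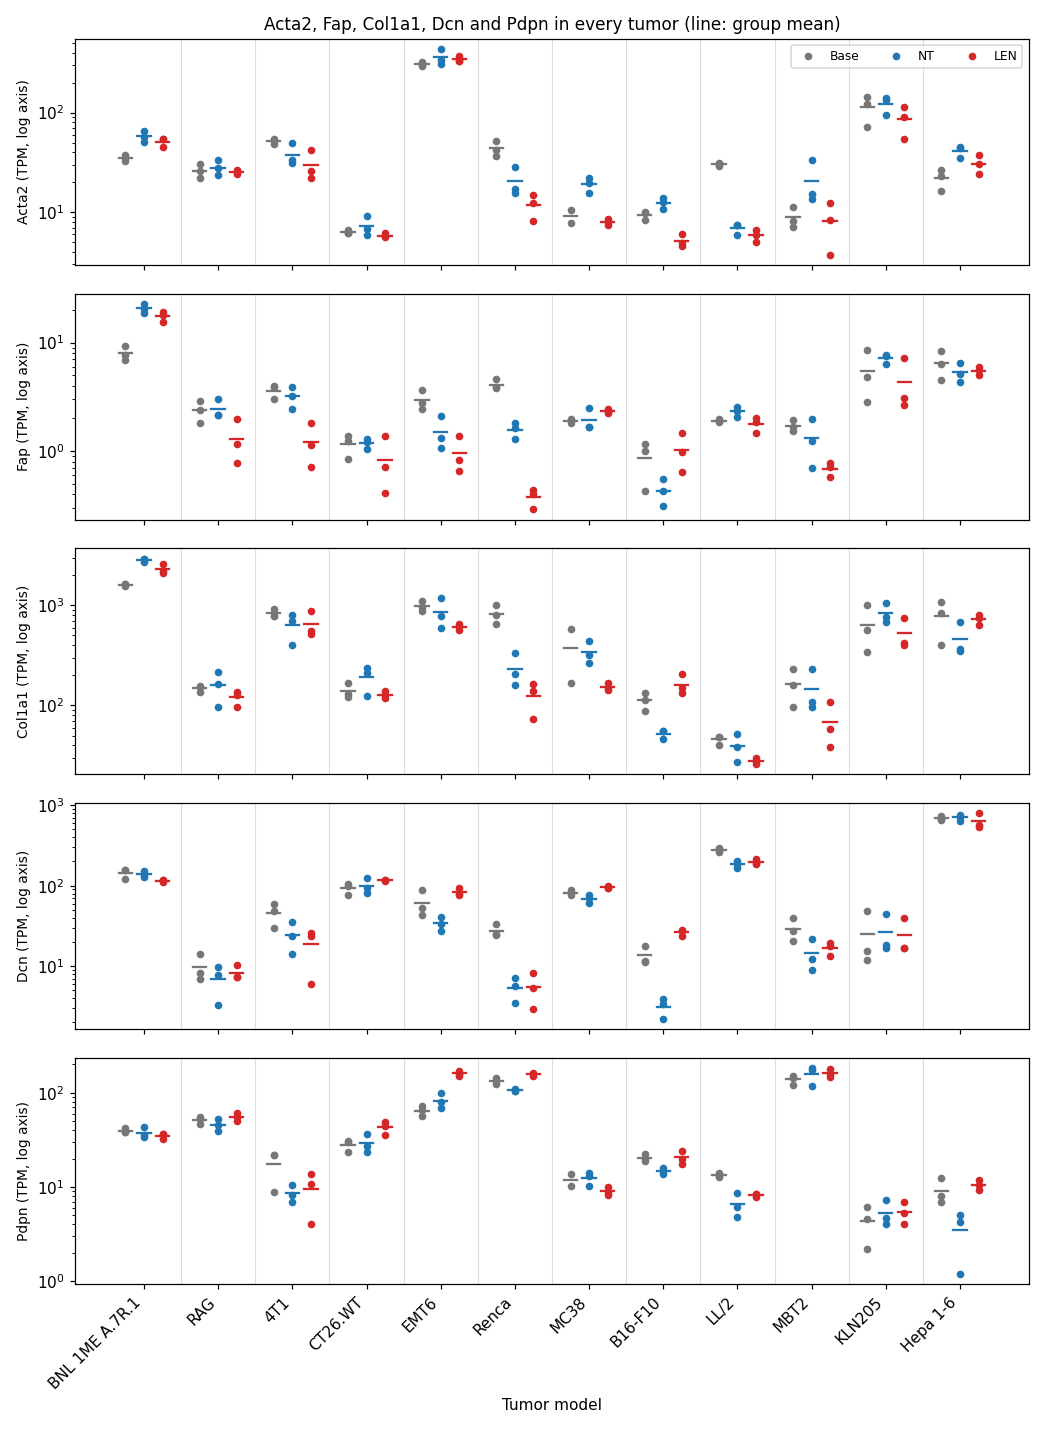
TPM of Acta2, Fap, Col1a1, Dcn and Pdpn (log axes) in each tumor (points) of each model by arm (grey Base, blue NT, red LEN), with a line at each group's mean. The Acta2 mean is lower in LEN than in NT in all 12 models, whereas Dcn in B16-F10 falls from Base to NT and lies above both in LEN.

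The LEN effect differed between the 12 models for 35 of 38 members (all but Fbln1, Fbln5 and Tagln), where 35.3% of all genes tested differed. Without B16-F10, BNL 1ME A.7R.1 and Renca, the effect still differed for 9 members, where 6.72% of all genes differed.

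B16-F10 and BNL 1ME A.7R.1 had the most calls within models. In B16-F10, of 37 members tested, 24 were higher with LEN and 1, Acta2, was lower, where 8.57% of all genes were higher and 2.42% lower, and the member median was 1.12 against 0.02 for all genes. Dcn had 2.21, 3.35 and 3.89 TPM in NT and 23.8, 27.0 and 27.9 TPM in LEN, an 8.33-fold ratio of the means (2.73, SE 0.16, adjusted p 0.00075). The LEN tumors exceeded the Base tumors too, at 11.4, 11.6 and 17.8 TPM. Dpt went from 0.300, 0.530 and 0.780 TPM to 4.51, 9.97 and 11.5 TPM (2.58, SE 0.32, adjusted p 0.0053). Col3a1 went from 37.5, 49.9 and 52.3 TPM to 197, 237 and 238 TPM (2.25, SE 0.14) and Lox from 2.37, 2.83 and 4.43 TPM to 13, 15.5 and 21.9 TPM (2.08, SE 0.24). In each of these genes the lowest LEN tumor was above the highest NT tumor.

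The rise in B16-F10 took in fibrillar collagens (all 6 tested, with Col1a1 from 45.7, 55.4 and 55.7 TPM to 132, 148 and 204 TPM), the proteoglycans Lum and Bgn, all 3 lysyl oxidases, and Fn1, which went from 89.7, 103 and 127 TPM to 204, 244 and 281 TPM and had 93.8, 107 and 115 TPM in Base. Fbln5, the member highest in this model, had 61.1, 69.3 and 69.9 TPM in NT and 60.6, 61.5 and 67.3 TPM in LEN (-0.08, adjusted p 0.59). From 21 to 25 members were higher whichever tumor was left out. In the same tumors all 8 skeletal muscle markers were higher, with sums of 2.63 to 27.1 TPM in NT and 157 to 236 TPM in LEN, and all 8 macrophage markers, with sums of 64.4 to 94.7 TPM and 210.2 to 301 TPM. Base tumors stood between, at 114 to 144 TPM and 141 to 179.7 TPM. Of the 8 further fibroblast markers 6 were higher and of 5 tested adipocyte markers 4. Lower were 4 of 7 tested endothelial, 3 of 7 tested pericyte and smooth muscle (1 was higher) and 5 of 8 proliferation markers. Their part in the result was not tested.

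In BNL 1ME A.7R.1, the model richest in collagen, 10 of 38 members were lower with LEN and 13 higher, where 5.21% of all genes were lower and 26.3% higher. With pooled spread 4 were lower and 7 higher, where 3.38% and 21.5% of all genes were. The higher count was thus not far above the share of all genes, and below it with pooled spread. Of the 6 elastic fibre genes, 4 were higher (Eln, Fbln2, Mfap5 and Fbln1), 1 was lower (Fbln5) and Fbn1 was not called. Eln went from 5.17, 6.26 and 6.39 TPM to 16.4, 16.6 and 20.4 TPM (1.44, SE 0.12, adjusted p 0.00031), Fbln2 from 67.9, 74.6 and 81.7 TPM to 181, 200.1 and 211 TPM (1.39, SE 0.09, adjusted p 0.0001) and Mfap5 from 9.82, 11.3 and 12.3 TPM to 23.1, 31.1 and 34.4 TPM (1.32, SE 0.16). Col14a1 rose by 1.02 to 8.02, 9.23 and 10.9 TPM. None of these 4 genes overlapped between arms.

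The members that were lower in BNL 1ME A.7R.1 included the abundant fibril components. Col1a1 went from 2685, 2918 and 2926 TPM to 2117, 2194 and 2609 TPM (-0.31, SE 0.09, adjusted p 0.042), and Lum from 28.3, 32.8 and 42.0 TPM to 16.5, 16.9 and 21.3 TPM (-0.87, SE 0.16). Col1a2, Col3a1, Dcn, Bgn, Col15a1, Col16a1, Col18a1 and Fbln5 were also lower, by 0.26 to 0.80. All genes shifted by a median of 0.17 in this model, and by -0.01 after upper-quartile scaling, which gave 16 members lower and 9 higher, where 11.6% and 13.2% of all genes were. The skeletal muscle marker sum was 43.4 to 129.5 TPM in NT and 1768 to 2543 TPM in LEN, the highest of all groups, and the adipocyte sum 30.1 to 39.4 TPM and 86.7 to 226 TPM. Keratinocyte sums were 3.38 to 5.25 and 8.25 to 10.4 TPM. All 8 endothelial markers (sums of 132 to 150.4 TPM in NT and 48.3 to 58.1 TPM in LEN), 5 of 8 proliferation markers and 3 of 7 tested pericyte and smooth muscle markers were lower with LEN, and 1 of the last was higher. The part of these lists in the members' values was not tested.

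In Renca, 4 of 37 members were lower and 3 higher, where 7.15% and 4.91% of all genes were, so both counts were near the background. The member median was -0.38, against -0.04 for all genes. Beside Col15a1, lower members were Fbn1, the fibrillin of microfibrils, from 14.6, 16 and 22.6 TPM to 5.11, 9.15 and 10.2 TPM (-1.06, SE 0.25, adjusted p 0.038), Col6a3 from 45.8, 48.2 and 69.2 TPM to 24.9, 31.7 and 36.3 TPM (-0.78, SE 0.19) and Col12a1 (-0.63). Pdpn was higher, from 103, 105 and 110.4 TPM to 152, 160.1 and 162 TPM (0.57, SE 0.07, adjusted p 0.0032), as were Fbln2 (0.53) and Lox (0.42). Leaving out 1 tumor left 1 to 3 lower and 2 or 3 higher, and with pooled spread 8 were lower and 1 higher, where 5.96% and 3.36% of all genes were. The NT tumors were those already low against Base, and Col1a1 in LEN had 73.5, 140.0 and 162 TPM (-0.90, adjusted p 0.16). In the same tumors 7 of 8 macrophage markers were lower with LEN (sums of 673 to 756 TPM in NT and 350.4 to 374 TPM in LEN), as were 6 of 7 tested endothelial, 5 of 7 tested pericyte and smooth muscle, 6 of 8 proliferation and 3 of 8 further fibroblast markers. Their part in the result was not tested.

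In EMT6, 2 of 38 members were higher, where 0.819% of all genes were. Pdpn rose from 69.4, 79.3 and 99.3 TPM to 152, 159.7 and 169.9 TPM (0.96, SE 0.13, adjusted p 0.035) and Dcn from 27.4, 33.4 and 41.2 TPM to 77.6, 77.8 and 94.8 TPM (1.28, SE 0.16, adjusted p 0.029). The arms lay apart for both genes, and their changes were 0.86 and 1.18 after upper-quartile scaling, where neither was called (adjusted p 0.076 and 0.068). Both were called after protein-coding scaling, and 0 or 1 was called when 1 tumor was left out. With no minimum on TPM or with no trend 0 were called, where 7 of 27266 and 5 of 15503 genes were higher.

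Limma called no member within the other 8 models, RAG, 4T1, CT26.WT, MC38, LL/2, MBT2, KLN205 and Hepa 1-6, where 0.0326%, 0.0127%, 0.00659%, 0.0314%, 0.148%, 0.0195%, 0.228% and 0.0664% of all genes were called in either direction. At an unadjusted p under 0.05 there were 4, 7, 8, 27, 9, 11, 13 and 22 members, where 8.77%, 6.20%, 9.02%, 11%, 17.8%, 13.8%, 13.5% and 23.6% of all genes passed. The fit with pooled spread called 0, 8, 0, 3, 1, 2, 4 and 16 members, where it called 1.03%, 18.7%, 0.473%, 0.375%, 1.39%, 2.05%, 3.04% and 9.69% of all genes. In 4T1, LEN replicate 4 had 27.5% of its TPM in protein-coding genes, against 45.3% and 43.8% in LEN replicates 2 and 5. The 4T1 median was -0.24 for the members and -0.19 for all genes, or -0.05 and -0.02 with protein-coding scaling. In the fits of each model alone few genes of any kind were called, while pooled spread called more in 4T1 and Hepa 1-6. A member's p above the threshold does not show that it stayed level. In MC38 the member median was -0.43 against 0.03 for all genes, and Col1a1 went from 264, 316 and 436 TPM to 143, 150.3 and 168 TPM (-1.11, adjusted p 0.20) and Sfrp2 from 11.2, 14.9 and 18.7 TPM to 2.66, 4.54 and 4.56 TPM (-1.70, adjusted p 0.17). After protein-coding scaling 8 MC38 members were called lower, where 0.370% of all genes were, and 1 higher. In Hepa 1-6 the member median was 0.72 against 0.14, and Col3a1 went from 208, 258 and 551 TPM to 744, 815 and 1145 TPM (1.51, adjusted p 0.095) and Pdpn from 1.2, 4.24 and 5.04 TPM to 9.25, 10.5 and 11.8 TPM (1.48, adjusted p 0.10). Without NT replicate 4 of Hepa 1-6, 12 members were called higher there, where 1.53% of all genes were. In KLN205 the member median was -0.38 against -0.04. In LL/2, Thbs1 had 22.4, 33.9 and 53.1 TPM in NT and 115, 117 and 117 TPM in LEN (1.73, adjusted p 0.084).

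**Figure D5:**
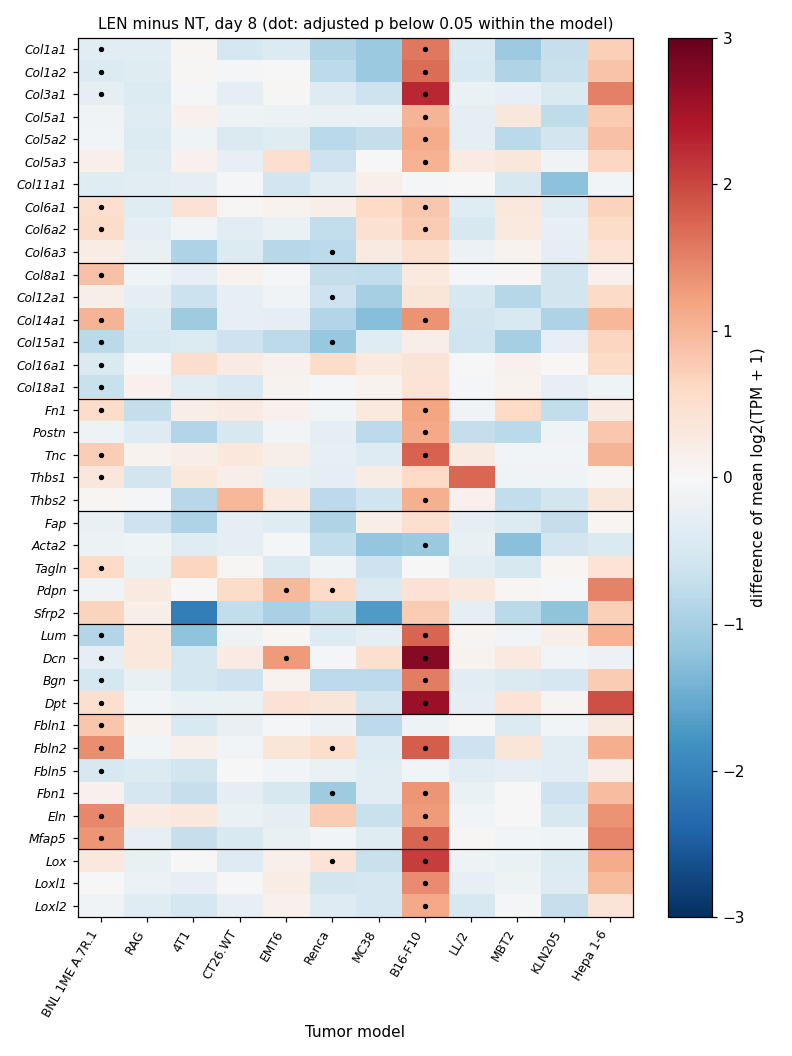
Difference of mean log2(TPM + 1), LEN minus NT on day 8, for each member (rows, by role) and model (columns), with red for higher in LEN, blue for lower and a dot for an adjusted p under 0.05 within the model. B16-F10 is red in 24 called members, BNL 1ME A.7R.1 is mixed, and the Acta2 row is blue in all 12 models.

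Genes that act around the matrix were read from 4 lists, whose counts stand beside 13.7% of all genes higher and 9.87% lower with LEN, and 17.0% higher and 11.5% lower in NT against Base. Of 21 genes for collagen processing, 6 were higher and 4 lower with LEN on average. Prolyl 4-hydroxylase stabilizes the collagen helix, and its subunit genes went both ways, with P4ha2 (0.49), P4ha1 (0.37) and P4hb (0.19) higher and P4ha3 (-0.23) lower. The collagen-binding Sparc was also lower (-0.28). P4ha1 (0.34), P4ha2 (0.29) and P4hb (0.17) were also higher in NT than in Base, where 4 of the list were higher and 3 lower. The comparisons share the NT tumors. Of 20 genes of the TGF-beta axis, which drives matrix transcription, 9 were higher and 2 lower with LEN (Thbs4 0.81, Inhba 0.49), and 9 higher and 1 lower in NT against Base (Ltbp3 0.21, Ltbp1 0.18, Tgfbi -0.38). The genes lower with LEN were Tgfb3 (-0.27) and Tgfbr2 (-0.16). Counts of the 4 lists are over all 12 models only.

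Of 14 tested receptors that bind collagen and fibronectin, 7 were higher and 1 lower with LEN (Sdc4 0.45, Sdc1 0.28, Ddr1 0.23), and 5 were higher and 1 lower in NT against Base (Ddr1 0.21, Itgb1 0.18, Itgav 0.16). Of 10 vascular basement membrane genes, 8 were lower and 1 higher with LEN, led by Nid2 (-1.26), Lama4 (-0.76) and Col4a2 (-0.71), while 3 of its genes were higher and none lower in NT against Base (Lamc1 0.23, Lamb1 0.15, Lama5 0.14). For LEN the median of that list was -0.42, against -0.05 for the 38 interstitial members tested and -0.00 for all genes. No test compared the lists.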

How the data were processed

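Tumor RNA was depleted of ribosomal RNA and sequenced on NovaSeq and NextSeq instruments, and which tumor ran on which is not given in the sources used here. The authors trimmed reads with Trimmomatic 0.36, aligned them with STAR 2.5.2b and estimated TPM (a length-corrected share of transcripts) with RSEM 1.2.31 on mm10 and Ensembl 88, and this TPM table of 50686 genes and 107 tumors was deposited. TPM is a share of each tumor's total, so a rise of other RNA lowers a gene's value, and depth and counting error cannot be recovered.

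Here log2(TPM + 1) was fitted with limma 3.58.1 in R 4.3.3 (lmFit, eBayes with trend) over genes with a mean of at least 1 TPM in the fitted tumors, with Benjamini-Hochberg adjustment over all of them and a threshold of 0.05. Mean comparisons used all tumors of both arms with a coefficient for each model and arm and weighted the 12 models equally, an F test compared effects between models, and within-model fits used that model's tumors alone. Samples were grouped by the labels. The labels name separate tumors, and p-values measure the spread between them.

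All 39 members are accounted for. Values are given in full for Col1a1, Col3a1, Fn1, Postn, Acta2 and Fap, for the 6 largest rises and falls of each mean comparison and for up to 4 called members per model, and up to 3 genes per pathway list are named by adjusted p, of which 1 is not reported here. Other members and list genes named were chosen after their values were seen. The members and lists were chosen with earlier results of these data known. Marker lists covered fibroblasts, pericytes and smooth muscle, endothelium, macrophages, skeletal muscle, adipocytes, keratinocytes and proliferation. On simulated data, the LEN fit over 17351 genes recovered 94% of changes of 0.5 and 99% of changes of 1 (log2), with 8.962% of its calls false, and the NT against Base fit over 17428 genes recovered 92% and 98%, with 2.062% false. No 2 tumors shared more than 4.992% of their values. Alternatives were another pseudocount (0.1), no minimum or a minimum of 5 TPM, upper-quartile and protein-coding scaling, no trend, a replicate block, pooled spread, and leaving out each tumor or model. Leaving out 3 models with differing muscle markers was added after the data were seen. Python 3.11.15 with pandas 2.3.3, numpy 2.4.6 and matplotlib 3.10.9 made tables and figures.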

Additional observations from a re-analysis of the deposited data

Results flagged for a closer look

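The LEN effect differed between the 12 models for 35 members, by the F test of that difference over all genes (adjusted p in each case). The fibulin and elastic fibre genes had values of 1.38e-09 for Fbln2, 2.25e-05 for Fbn1, 0.000537 for Eln and 0.00275 for Mfap5. Among fibrillar collagens they were 5.07e-05 for Col1a2, 5.46e-05 for Col3a1, 6.05e-05 for Col5a3, 0.000168 for Col1a1, 0.00019 for Col5a1 and 0.00136 for Col5a2. Type VI chains had 0.00129 for Col6a3, 0.00138 for Col6a2 and 0.00691 for Col6a1. The other collagens had 2.64e-07 for Col14a1, 3.1e-06 for Col8a1, 0.00255 for Col15a1, 0.00762 for Col16a1, 0.023 for Col18a1 and 0.0275 for Col12a1. Matrix glycoproteins had 1.95e-05 for Fn1, 0.000276 for Thbs2, 0.000564 for Thbs1, 0.00615 for Tnc and 0.00703 for Postn. Proteoglycan genes had 4.16e-05 for Dcn, 0.00036 for Lum, 0.000367 for Dpt and 0.000432 for Bgn. Lysyl oxidases had 2.96e-05 for Loxl2, 0.000117 for Loxl1 and 0.000866 for Lox. Fibroblast and contractile markers had 0.00159 for Fap, 0.00186 for Pdpn, 0.00237 for Sfrp2 and 0.032 for Acta2. Acta2 was nonetheless lower in all 12 models, so its models differed in size, whereas Dcn was lower in 5 models and higher in 7.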

How the results depend on the processing

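With LEN, 9 members were lower and 8 higher. The lower count became 14 with protein-coding scaling, where 2645 of 14157 genes were lower, against 1712 of 17351 in the main fit. It became 15 without B16-F10 (all genes 9.37%) and 15 without Hepa 1-6. The higher count became 3 without B16-F10 (10.8%), 5 without Hepa 1-6 and 2 without B16-F10, BNL 1ME A.7R.1 and Renca (3.84%). Leaving out those 3 was a choice made after seeing the data. It also took the members whose LEN effect differed from 35 to 9 (all genes 35.3% and 6.72%). The shares of all genes without Hepa 1-6 are not given. For NT against Base, the 17 lower became 10 without Renca, 11 without B16-F10 and 2 without those 3 models. The 3 higher became 0 with upper-quartile or protein-coding scaling or without KLN205, 1 without BNL 1ME A.7R.1, 4T1, EMT6 or MC38, and 5 without Renca. Genes higher in NT went from 2971 of 17428 to 1419 of 17520 with upper-quartile scaling and 1037 of 14194 with protein-coding scaling. Member and model pairs lower with LEN numbered 15, against 31 with protein-coding scaling and 30 with pooled spread, and pairs lower in NT numbered 54, against 27 with no minimum and 90 with protein-coding scaling. All genes moved with scaling too. In EMT6, 736 of 16330 genes were lower in NT in the main fit and 4024 of 13282 with protein-coding scaling. Col14a1 in NT against Base went from -0.31 to 0.0066 without the 3 models. The cause was not tested.

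Leaving out 1 tumor gave 7 to 12 lower and 8 to 11 higher with LEN, 15 to 21 lower and 1 to 3 higher in NT, 38 differing in Base (38 to 38), and 34 to 35 differing in LEN effect. Pairs within models ranged from 12 to 16 lower and 39 to 54 higher with LEN, and from 43 to 64 lower and 32 to 46 higher in NT. Without MC38 Base replicate 2 the NT higher count was 1.

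Same-numbered tumors came from different mice and their deviations correlated between -0.08 and 0.078 (LEN and NT) and between -0.146 and 0.101 (NT and Base), so the numbers did not pair them. With the replicate number as a block, 6 members were lower and 3 higher with LEN, 9 differed in LEN effect, and 15 were lower and 0 higher in NT. The share of all genes called with the block is not given, so these counts are not a result about the members. For the Base levels no paired analysis was possible, because only 1 arm enters them, and no block was fitted within single models. Groups of 3 tumors limit the precision of each value, and counting error is unknown without depth.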
